A study of Mus musculus with 9 samples.

Results

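The comparison described here is that of Notch1 knockout liver with wild-type liver, across all genes of the array. Its members are the 3 arrays of each liver group, 6 of the 9 arrays of the series. The first group, called WT, is liver of C57Bl/6 mice in which both copies of Notch1 were flanked by loxP sites (Notch1 lox/lox) and which carried no Cre. The second group, called KO, is liver of Notch1 lox/lox mice that also carried MxCre, a Cre recombinase under the interferon-inducible Mx promoter. Mice of both groups were injected with poly(I:C), a synthetic RNA duplex that switches this promoter on, at 300 µg from 4 weeks of age, on days 0, 3 and 6, so the treatment is shared and the Cre is not. In the KO animals Cre deletes the signal peptide exon of Notch1 in cell types that answer interferon. Since no WT mouse carried MxCre, effects of the recombinase and of the missing receptor cannot be told apart. Each array is one animal, and the arrays are called WT 1 to WT 3 and KO 1 to KO 3 after the replicate numbers of the labels. Values are log2 expression, 1 probe set stands for each gene, and 19938 genes were tested.

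Notch1 is one of the 4 receptors of a pathway in which a ligand on one cell pulls on a receptor of its neighbour. The receptor is then cleaved by ADAM proteases and by gamma-secretase, and its inner part enters the nucleus, where it joins RBPJ and a Mastermind coactivator and switches on genes such as the Hes and Hey repressors. In liver the pathway is known for forming bile ducts and for keeping the sinusoidal endothelium, the lining of the smallest vessels, in its resting and differentiated state.

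The label "liver" was checked against markers of liver cell types. The hepatocyte gene Alb lay between 12.14 and 13.96 in the 6 arrays, the endothelial cadherin Cdh5 at 12.72 or more, the sinusoidal receptor Stab2 between 12.80 and 13.21 and the Kupffer cell receptor Clec4f between 11.67 and 12.60. These 4 markers were thus bright in every array. The bile duct keratins Krt7 (5.78 to 6.27) and Krt19 (5.67 to 6.76) lay near or below the array medians of 6.59 to 6.63, and so did Epcam (5.33 to 6.77). The extraction protocol names an abbreviation, PHH, that the labels leave unexplained, so whether whole liver or a cell fraction was extracted is not settled. In such bulk samples fewer cells of a type and less RNA per cell cannot be told apart.

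Arrays of one genotype were not alike. The mean of 31 hepatocyte genes was 10.91 in WT 1 and 12.04 in WT 2, with WT 3 close to WT 2, and 9.97, 12.16 and 8.78 in KO 1, KO 2 and KO 3. KO 2 was thus the richest of all arrays in hepatocyte RNA, and KO 1 and KO 3 the poorest. The mean of 29 T and NK cell genes was 6.45 in WT 1, against 8.08 and 8.07 in WT 2 and WT 3 and 6.45 to 6.62 in the KO livers. The Y-linked genes Eif2s3y, Uty and Kdm5d stood at 8.66, 8.35 and 7.32 in KO 3 and at 3.86 to 4.67 in the other 5 arrays, while Usp9y, Zfy1 and Zfy2 were at 4.04 to 4.46 in all 6. The first principal component held 64.1% of the variance and placed KO 2 at 30.2, beside WT 2 (34.7) and WT 3 (34.5), while KO 1 lay at -43.4 and KO 3 at -55.9. KO 2 bears on most single-gene p-values: of 145 genes whose difference is described here, none passed an adjusted p of 0.05 in limma with all arrays, and 107 did without KO 2 and 6 without WT 1. Both arrays were singled out by their values, so results without them are descriptions and not independent support.

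Notch1 itself stood at 11.69, 11.02 and 11.71 in the WT livers and at 7.84, 8.75 and 8.52 in the KO livers. Every KO array lay far below every WT array, with KO 1 the lowest. The difference was -3.10 log2 units (SE 0.302), a KO level of 11.6% of the WT level, with an adjusted p of 0.0995 in limma, and p was 0.1 in a 2-sided exact permutation test, which cannot go lower with groups of 3. Without KO 2, an array singled out by its values, the adjusted p of limma was 0.018, which is a description and not independent support. Where the probes lie relative to the deleted exon was not analysed here.

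The other receptors differed less. Notch4, the receptor of endothelial cells, stood at 9.66, 9.71 and 9.66 in the WT livers and at 10.54, 9.76 and 10.45 in the KO livers. Its 3 KO arrays all lay above the WT arrays, but KO 2 by only 0.05, and the mean difference of 0.57 had an SE of 0.215 and an adjusted p of 0.204. Without KO 2, the KO array nearest the WT arrays here, the difference was 0.82, with an adjusted p of 0.0166 in limma. That array was singled out by its values, so this is a description and not independent support. Notch2, the receptor that directs bile duct formation, differed by -0.43 (SE 0.302) and Notch3 by 0.03 (SE 0.0895), both with overlapping groups. Notch2 was at 9.64 in KO 2, and without that array its difference was -0.75 and its groups did not overlap. Of the 8 ligands, Jag1 alone had groups that did not overlap. It stood at 8.08, 8.40 and 8.40 in the WT livers and at 7.56, 7.29 and 7.85 in the KO livers, a difference of -0.72 (SE 0.171, adjusted p = 0.114). The endothelial ligand Dll4 ranged from 9.54 to 10.06 in WT and from 9.47 to 10.23 in KO livers, and the other 6 ligands differed by -0.14 to 0.01.

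Enzymes that modify and process Notch mostly stood slightly higher in the KO livers. Of 21 such genes, all KO arrays lay above all WT arrays in 12 and below in 1, and the median difference was 0.23. Over all 19938 genes tested, all KO arrays lay above all WT arrays in 19.2% and below in 11.1%, with a median difference of -0.00. The fringe glycosyltransferase Mfng, which changes the receptor's choice of ligand, stood at 8.75, 8.82 and 8.75 in WT and at 9.88, 9.08 and 9.48 in KO livers. All 3 KO arrays were higher, KO 2 least, for a difference of 0.71 (SE 0.203). The sheddases Adam10 and Adam17 were higher by 0.45 and 0.35, the gamma-secretase subunit Aph1a by 0.36, the ligand ubiquitin ligase Mib1 by 0.45 and Numbl, a relative of the Notch inhibitor Numb, by 0.52. Dtx1, a ubiquitin ligase that is also a Notch target in lymphocytes, was the one gene below, by -0.62 (SE 0.235). WT 1 and KO 3 were equal at 6.85 to the printed digits in this gene, and WT 1 was also near the KO arrays in the T and NK cell list.

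Among 11 nuclear partners, groups did not overlap in 5 genes, all higher in the KO livers. Maml3, a Mastermind coactivator, stood at 8.14, 8.05 and 8.02 in WT and at 9.51, 8.77 and 9.20 in KO livers. The KO arrays were clearly apart from the WT arrays, which lay within 0.12 of one another, and the difference was 1.09 (SE 0.192, adjusted p = 0.0995). Maml1 and the acetyltransferase Ep300 were higher by 0.27 and 0.33, while Rbpj, the DNA-binding partner, differed by -0.09 (SE 0.109) with overlapping groups.

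Of 22 Notch target genes, 6 had every KO array below every WT array and 1 had every KO array above, and the median was -0.06. Hes1, a repressor switched on by Notch, stood at 10.40, 10.29 and 10.26 in WT and at 9.46, 9.70 and 9.50 in KO livers. The highest KO array lay 0.56 below the lowest WT array, for a difference of -0.76 (SE 0.0901, adjusted p = 0.0995). Sox9, a bile duct and progenitor transcription factor, stood at 8.02 in WT 1 and WT 3, with WT 2 almost equal, against 7.03, 7.44 and 7.03 in KO arrays. The difference of -0.85 (SE 0.127) was present in all 3 KO livers and smallest in KO 2. Efnb2, an ephrin of arterial endothelium, differed by -0.63 (SE 0.182), with KO 3 at 9.69 just under WT 3 at 9.78, and Heyl, a Hes relative, differed by -0.24 (SE 0.0871). Il7r, a lymphocyte receptor among the targets, differed by -1.69, but WT 1 at 5.53 lay with the KO arrays at 5.48 to 5.71. Myc, the growth regulator, was the target that stood higher: 11.04, 11.29 and 11.24 in WT and 11.99, 11.82 and 11.66 in KO livers, a difference of 0.63 (SE 0.114, adjusted p = 0.0995).

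**Figure D1:**
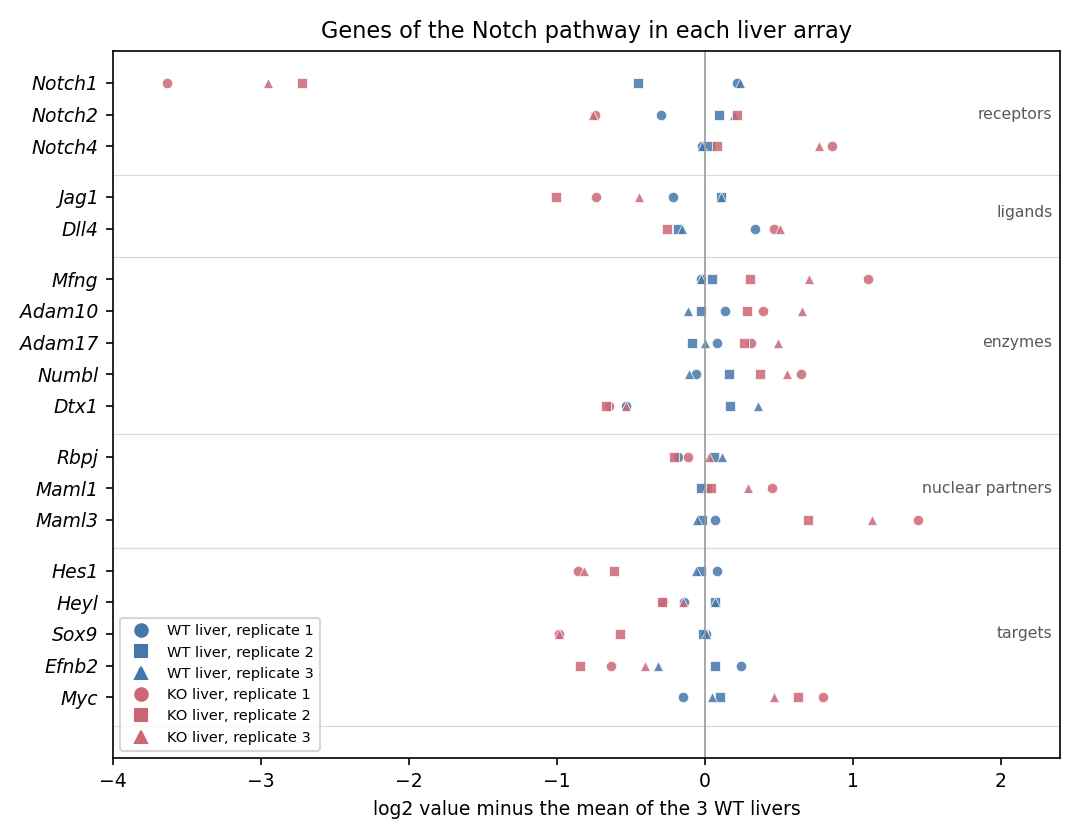
Log2 values of 18 Notch pathway genes in each liver array, as the difference from the mean of the 3 WT livers (x axis), grouped by role; blue symbols are WT and red symbols KO arrays, with circle, square and triangle for replicates 1, 2 and 3. The KO arrays stand apart to the left for Notch1, Jag1, Hes1 and Sox9 and to the right for Maml3 and Myc, and they overlap the WT arrays for Notch2, Dll4 and Rbpj.

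Across all genes, 0 genes passed an adjusted p of 0.05 in limma. At an unadjusted p under 0.05 there were 4479 genes, with 3449 (17.3%) higher and 1030 (5.17%) lower in KO liver. At the looser adjusted p of 0.10 there were 366 genes, 316 higher (1.58%) and 50 lower (0.251%). The groups did not overlap in 6037 genes, 3829 above (19.2%) and 2208 below (11.1%), the shares to set beside the counts of each list. Differences of at least 1 log2 unit without overlap were found in 137 higher and 55 lower genes, and with overlap allowed in 162 higher and 403 lower genes. KO 2 bears on these counts: without it 1671 genes were higher and 278 lower at an adjusted p of 0.05.

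The direction of a difference went with the brightness of the gene. In the dimmest quartile of genes, with means over the 6 arrays of 3.63 to 5.50, all KO arrays lay above all WT arrays in 2.51% and below in 21.8%. In the second quartile (5.50 to 7.12) the shares were 10.8% above and 15.7% below. In the third quartile (7.12 to 8.87) they were 34.8% above and 3.43% below, and in the brightest 28.8% above and 3.31% below. The median differences of the 4 quartiles were -0.08, -0.05, 0.20 and 0.15, and they were alike in all 3 KO arrays, at 0.19, 0.21 and 0.23 in the third quartile. The WT arrays were not alike: their medians minus the WT mean were -0.10, 0.05 and 0.05 in the third quartile, with WT 1 the lowest. In the dimmest quartile they were 0.04, -0.01 and -0.04, with WT 1 the highest. WT 1 thus adds to these differences, and the cause of the pattern was not tested. Scaling each array to its 75th percentile turned the split: all KO arrays then lay above all WT arrays in 1012 genes and below in 7513, 839 genes were higher and 3652 lower at an unadjusted p under 0.05, and the median of all genes moved to -0.18. Small differences of bright genes below are to be read relative to that shift, and the zero point of the comparison is not settled to within it.

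**Figure D2:**
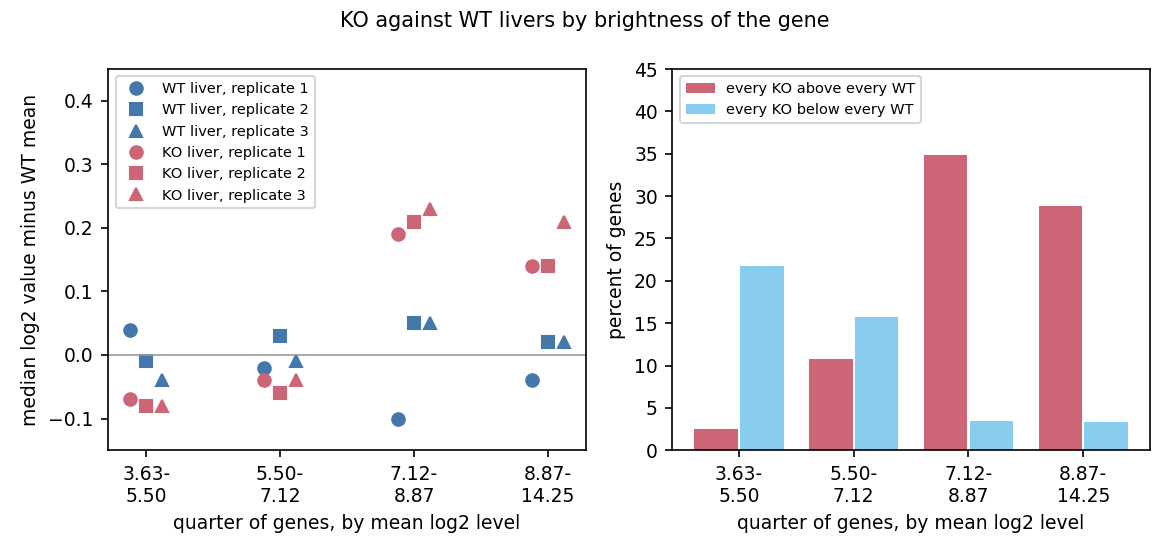
Left, the median of the log2 value minus the WT mean in each array (y axis) for 4 quartiles of genes ordered by mean log2 level (x axis), with WT arrays in blue and KO arrays in red. Right, the percent of genes in each quartile with every KO array above (red) or below (light blue) every WT array; all 3 KO arrays lie near 0.2 in the third quartile, where 34.8% of genes were above and 3.43% below.

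The 15 genes of smallest p were taken from those that stood higher in the KO livers without overlap, with a KO mean of at least 7. Brightness and even KO values thus follow in part from the rule of choice. Most of the 15 differed modestly. Rab3b, a GTPase that tethers secretory vesicles, was the exception in size. It stood at 8.75, 8.71 and 8.96 in WT and at 10.73, 10.43 and 10.85 in KO livers. The gap of 1.47 between the groups was larger than the range within WT (0.25) or KO arrays (0.42), with a difference of 1.86 (SE 0.133, adjusted p = 0.0995). Other genes of vesicle traffic among the 15 were Scamp5, a secretory carrier membrane protein, higher by 0.98 (SE 0.11), and Dmxl2, a synaptic vesicle protein that binds regulators of Rab3, higher by 0.79 (SE 0.0843). Over 35 Rab and vesicle traffic genes the groups did not overlap in 5 higher and 3 lower genes, with a median of 0.04, smaller shares than the 19.2% and 11.1% of all genes.

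Setdb1, a methyltransferase that silences chromatin through histone H3 lysine 9, stood at 8.13, 8.02 and 8.08 in WT and at 8.82, 8.70 and 8.71 in KO livers. The KO arrays lay within 0.12 of one another, and the difference was 0.66 (SE 0.0649). Men1, the scaffold menin of a histone H3 lysine 4 methyltransferase, was higher by 0.63 (SE 0.0684) and Ing4, a reader of that mark, by 0.53 (SE 0.0583). Chosen after their values were seen, the methyltransferases Ehmt1 and Setd2 and the deacetylase Hdac2 were higher by 0.76, 0.59 and 0.75, each at an adjusted p under 0.10. Upf2, a factor of nonsense-mediated decay, was higher by 0.89, the double-stranded RNA-binding protein Prkra by 0.84, the mismatch repair gene Mlh3 by 0.55 and the subunit Gpaa1, which joins proteins to their lipid anchors, by 0.52. For each of these 4 genes the KO arrays lay within 0.26 of one another.

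Genes of the primary cilium, the antenna-like organelle on which several signalling pathways sit, were higher in number. Of 32 cilium genes, all KO arrays lay above all WT arrays in 20 (62.5%) and below in 2 (6.25%), with a median of 0.31. Over all genes the shares were 19.2% and 11.1%. A WT mean under 7 was found in 19 of the 32, and 10.8% of the second and 34.8% of the third quartile of all genes lay above. Kif3a, the motor that carries cargo up the cilium, stood at 6.79, 6.77 and 6.66 in WT and at 7.44, 7.37 and 7.37 in KO livers. Its KO arrays were nearly equal, 0.65 (SE 0.0653) above the WT mean. Cfap97 was higher by 0.82 (SE 0.076) and Tmem138, a protein of the cilium's base, by 0.79 (SE 0.0846), with KO arrays at 7.37 to 7.39. The intraflagellar transport genes Ift46, Ift80 and Ift88 were higher by 0.54, 0.44 and 0.54, while Ift43 was lower, at 8.22, 8.17 and 8.17 in WT and 7.72, 7.84 and 7.91 in KO livers (difference -0.36, SE 0.0707). The list mean exceeded that of the WT livers by 0.29 in KO 1, by 0.21 in KO 2 and by 0.30 in KO 3. It differed from the cell division genes described next in that its height was nearly the same in the 3 KO livers, a contrast that was not tested. Its median stayed between 0.29 and 0.33 when either doubted array, or each other KO array, was left out, and was 0.13 after 75th percentile scaling.

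**Figure D3:**
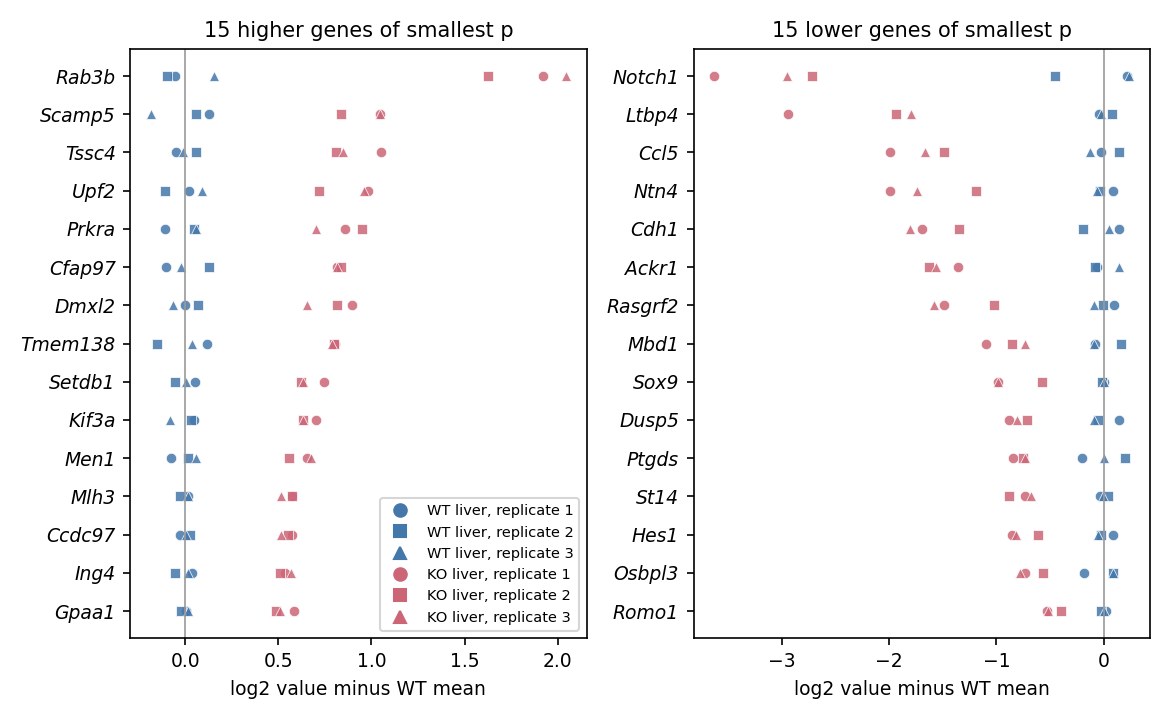
The 15 higher (left) and 15 lower (right) genes of smallest p, ordered by size of the difference; the x axis is the log2 value minus the WT mean, with WT arrays in blue and KO arrays in red. By the rule of choice every KO array lies clear of every WT array for each gene, and the higher genes other than Rab3b differ by less than 1 log2 unit.

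Genes of cell division stood higher in the KO livers. They are usually silent in resting liver and are switched on in order, with DNA replication genes first and mitotic genes last. The 6 lists for replication, cyclins and their kinases, kinetochores, the spindle, anaphase and repair of replicated DNA held 182 genes. In 124 of these genes (68.1%) all KO arrays lay above all WT arrays, and in 0 below, against 19.2% and 11.1% of all genes. Their median was 0.70. Their mean exceeded that of the WT livers by 1.15 in KO 1, by 0.33 in KO 2 and by 0.95 in KO 3, and KO 2 was the lowest of the KO arrays in 174 of the 182 genes. KO 2 was also the array with the highest hepatocyte mean (12.16), and with that mean as a covariate the median of the spindle list was 1.02 in place of 1.25 and that of the replication list 0.36 in place of 0.58.

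The spindle list held the clearest separation. In 32 of its 33 genes all KO arrays lay above all WT arrays, and its median was 1.25. Anln, anillin of the contractile ring, stood at 5.79, 6.23 and 5.99 in WT and at 8.82, 7.24 and 8.26 in KO livers. KO 1 was highest and KO 2 lowest, yet KO 2 was still 1.01 above the highest WT array. The difference was 2.10 (SE 0.406, adjusted p = 0.102 in limma). Plk1, the polo kinase of mitotic entry, stood at 6.77, 6.49 and 6.75 against 9.49, 7.86 and 8.74, a difference of 2.03. The spindle motor Kif11 and the spindle bundler Prc1 were higher by 2.00 and 1.97. Kif23, a motor of cytokinesis, was higher by 1.25 (SE 0.218, adjusted p = 0.0995).

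Kinetochore and checkpoint genes, which hold chromosomes to the spindle, did not overlap in 25 of 32, all higher, with a median of 0.74. Bub1, a checkpoint kinase, stood at 5.47, 5.63 and 5.66 in WT and at 8.27, 6.74 and 7.77 in KO livers, with the same order of KO arrays as Anln. Its difference was 2.01 (SE 0.386). Sgo2a, a protector of centromere cohesion, was higher by 2.02 (SE 0.612), the kinetochore motor Cenpe by 1.53 and Spc25, of the microtubule-binding Ndc80 complex, by 1.25 (SE 0.186, adjusted p = 0.0995).

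Genes of anaphase and chromosome condensation did not overlap in 18 of 22, with a median of 0.99. Top2a, the topoisomerase that untangles sister chromatids, stood at 6.36, 7.01 and 7.16 in WT and at 9.35, 7.87 and 9.04 in KO livers. The 3 KO arrays were above the WT arrays, KO 2 by the smallest step, and the difference was 1.91 (SE 0.435). Mki67, a common marker of cycling cells, was higher by 1.61 and the condensin subunit Ncaph by 1.55.

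Among 28 cyclins, kinases and E2F factors, 15 did not overlap, all higher, with a median of 0.62. Ccna2, the cyclin of S and G2 phase, stood at 7.22, 7.38 and 7.49 in WT and at 10.13, 8.46 and 9.70 in KO livers, with a gap of 0.97 between the groups and a difference of 2.06 (SE 0.43). Its partner kinases Cdk1 and Cdk2 were higher by 1.53 and 0.84, the mitotic cyclin Ccnb2 by 1.51, and Foxm1, the transcription factor of late cell cycle genes, by 1.43.

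Replication genes separated less. All 40 had a positive difference, 17 did not overlap and the median was 0.58. The polymerase subunit Pole stood at 5.92, 6.14 and 6.42 in WT and at 7.93, 6.56 and 7.90 in KO livers, so that KO 2 lay near WT 3 while KO 1 and KO 3 were far above. The difference was 1.30 (SE 0.402). Chaf1a, which loads histones on new DNA, was higher by 0.93 (SE 0.194), while the helicase subunits Mcm6 and Mcm7, at 0.99 and 1.12, overlapped through KO 2. Without KO 2, 38 of the 40 did not overlap, where 29.4% of all genes tested were above. In the repair list 17 of 27 did not overlap (median 0.53), among them the damage kinases Chek2 (1.02, SE 0.176), Atr (0.51) and Atm (0.42). Chek1 was higher by 0.95.

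Histone genes that are transcribed during replication were added as a list after their values were seen. Of 26, all KO arrays lay above all WT arrays in 15 and below in 0, with a median of 0.49. H2bc3 stood at 7.46, 8.04 and 8.52 in WT and at 10.81, 9.26 and 10.19 in KO livers, in the same order of KO arrays as the cell cycle genes, for a difference of 2.08 (SE 0.46). H2ac4 was higher by 2.04 (SE 0.504). Near-identical copies of histone genes can share probes, so values of single copies are uncertain.

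Inhibitors of the cell cycle were mixed. Of 16, the groups did not overlap in 6, all higher, and the median was 0.15, or -0.03 after 75th percentile scaling. Cdkn2c, an inhibitor of the G1 kinases, stood at 6.98, 7.29 and 7.40 in WT and at 8.53, 7.93 and 8.61 in KO livers, a difference of 1.13 (SE 0.214) with no overlap. The retinoblastoma family members Rbl1 and Rb1 and their partner E2f4 were higher by 0.95, 0.74 and 0.51. Gadd45b, a stress gene, differed by -0.82 (SE 0.385), with KO 2 at 11.20 within the WT range.

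**Figure D4:**
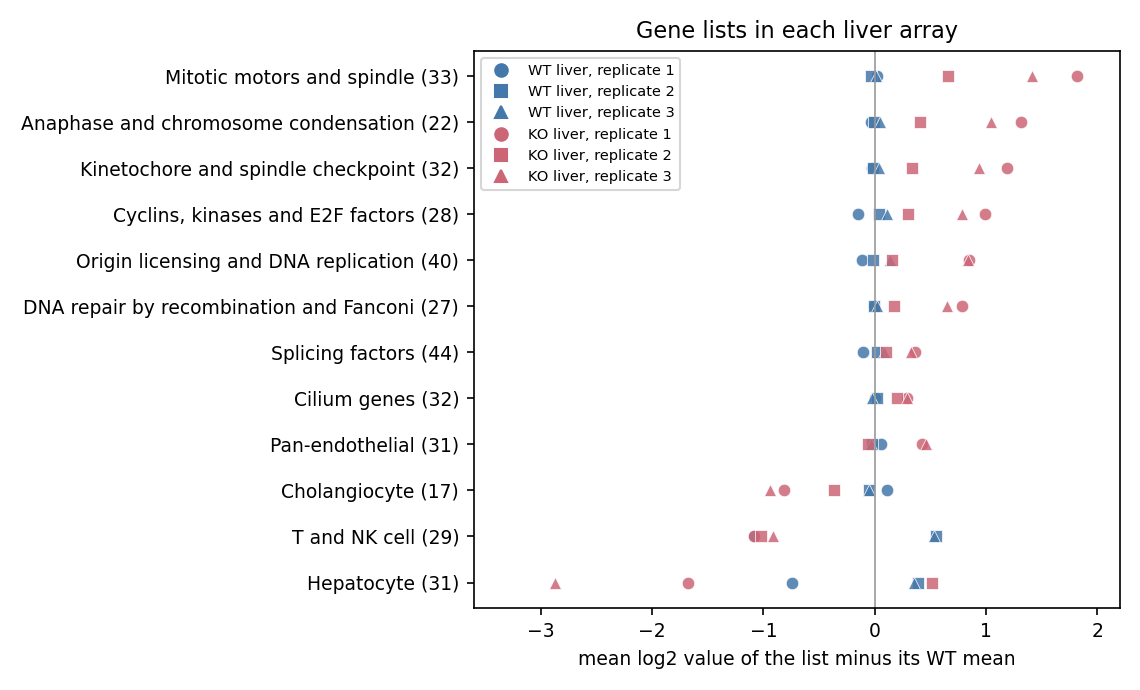
Mean log2 value of each gene list in each array minus its WT mean (x axis), with the number of genes in brackets; WT arrays are blue and KO arrays red. In the 6 lists of cell division and repair KO 1 and KO 3 lie far to the right and KO 2 less so, the cilium list is nearly even, and in the hepatocyte list KO 2 lies beside WT 2 and WT 3.

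Promoters of late cell cycle genes are known to hold CCAAT boxes and the cell cycle homology element, whose core is TTTGAA. The promoters shown are those of 5 mitotic genes with large differences, chosen after their values were seen, so that promoters with and without these motifs can be compared. Each is the run of 250 bases before the gene's start, from RefSeq on GRCm38.p6, and capitals mark CCAAT or TTTGAA on either strand (ATTGG and TTCAAA are the same motifs read on the other strand).
Kif11, chr19:37376132-37376381, plus strand: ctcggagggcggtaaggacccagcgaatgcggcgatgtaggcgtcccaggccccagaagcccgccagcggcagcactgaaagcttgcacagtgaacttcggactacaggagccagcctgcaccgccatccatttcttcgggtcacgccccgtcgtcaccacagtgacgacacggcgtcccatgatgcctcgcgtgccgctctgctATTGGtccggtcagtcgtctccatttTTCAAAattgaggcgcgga
Bub1, chr2:127831860-127832109, minus strand: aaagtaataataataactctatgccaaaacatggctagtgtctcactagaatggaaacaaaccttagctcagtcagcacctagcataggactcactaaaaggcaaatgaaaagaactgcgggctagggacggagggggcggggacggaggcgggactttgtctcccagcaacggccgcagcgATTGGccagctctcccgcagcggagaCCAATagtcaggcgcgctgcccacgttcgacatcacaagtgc
Top2a, chr11:99024190-99024439, minus strand: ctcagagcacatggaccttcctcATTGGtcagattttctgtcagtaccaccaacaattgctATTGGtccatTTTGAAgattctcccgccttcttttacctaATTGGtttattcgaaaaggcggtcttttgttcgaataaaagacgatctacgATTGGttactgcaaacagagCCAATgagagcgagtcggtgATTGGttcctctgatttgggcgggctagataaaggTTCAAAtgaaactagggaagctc
Plk1, chr7:122159185-122159434, plus strand: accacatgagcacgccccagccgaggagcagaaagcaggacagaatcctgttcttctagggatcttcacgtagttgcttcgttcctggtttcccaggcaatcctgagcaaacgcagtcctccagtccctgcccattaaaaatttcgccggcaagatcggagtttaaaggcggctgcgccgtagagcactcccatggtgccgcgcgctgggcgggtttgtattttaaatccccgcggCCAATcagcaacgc
Anln, chr9:22389207-22389456, minus strand: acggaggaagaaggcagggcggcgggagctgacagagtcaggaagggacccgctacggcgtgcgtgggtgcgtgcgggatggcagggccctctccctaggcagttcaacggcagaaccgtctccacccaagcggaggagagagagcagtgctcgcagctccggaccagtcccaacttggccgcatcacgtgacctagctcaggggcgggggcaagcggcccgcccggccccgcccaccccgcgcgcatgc
In Kif11 the CCAAT match begins 45 bases and the TTTGAA match 19 bases before the start. In Bub1 the 2 CCAAT matches begin at 68 and 42 bases and in Plk1 the 1 match at 14 bases, while Top2a held 8 matches of either motif and Anln 0. CCAAT was found in 33.8% and TTTGAA in 16% of all 32851 windows of this length. In the 31 windows of the spindle list the shares were 67.7% and 38.7%, in the 19 of the anaphase list 63.2% and 52.6%, in the 34 of the kinetochore list 58.8% and 17.6% and in the 36 of the replication list 55.6% and 11.1%. The 27 windows of the cilium list held CCAAT in 59.3% and TTTGAA in 3.7%. Both motifs were counted separately whether or not they overlapped, and a match describes letters, not a bound factor. For Notch targets, the core TGGGAA bound by RBPJ was found in 4 of 17 windows (23.5%) against 21.6% of all, and Hes1 was not among the genes with a window. The same core was in 35.5% of the spindle, 36.1% of the replication, 14.7% of the kinetochore, 5.26% of the anaphase and 18.5% of the cilium windows.

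Outside the cell cycle, the largest higher differences were those of single genes with other roles. Susd4, a complement inhibitor, stood at 6.02, 7.15 and 6.85 in WT and at 10.67, 7.44 and 9.62 in KO livers, a difference of 2.57 (SE 0.85) that KO 1 and KO 3 carried while KO 2 lay close to WT 2. Kcne3, a potassium channel subunit, followed the same order and differed by 2.44 (SE 0.91). Peg10, an imprinted gene derived from a retrotransposon, stood at 8.06 in WT 1 and 8.31 in WT 2, with WT 3 just below WT 1, and at 11.79, 9.35 and 10.65 in KO livers, with every KO array more than 1 log2 unit above the WT arrays (difference 2.47, SE 0.601). Other imprinted growth genes were split. Grb10 was higher by 1.25 (SE 0.432) and Plagl1 lower by a difference of -0.61 (SE 0.144), and Mest, at 1.30, overlapped through KO 2. Over 20 imprinted genes 4 lay above (20%) and 4 below (20%), where 19.2% and 11.1% of all genes did, and the median was -0.00.

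Plau, urokinase, which activates plasmin outside the cell, stood at 9.07, 8.27 and 8.45 in WT and at 11.47 in KO 1 and 10.18 in KO 2, with KO 3 between them. All 3 KO arrays were at least 1.11 above the highest WT array, and the difference was 2.29 (SE 0.381, adjusted p = 0.0995). Mmp14, a membrane-bound collagenase, was higher by 0.73 (SE 0.129). Of 29 matrix proteases and their inhibitors, 6 lay above and 3 below (20.7% and 10.3%), near the 19.2% and 11.1% of all genes. Their median was 0.16, and -0.03 after 75th percentile scaling. Itga8, an integrin chain, was higher by 0.94 (SE 0.17), the basement membrane protein Nid2 by 1.33 and the protocadherin Pcdh17 by 1.29. Tlr4, the receptor of bacterial lipopolysaccharide, was higher by 1.16 (SE 0.259).

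Of 21 genes of the p53 pathway, 6 lay above (28.6%) and 2 below (9.52%), against 19.2% and 11.1% of all genes, with a median of 0.22. Eda2r, a death receptor of the TNF receptor family, stood at 7.19, 6.97 and 6.49 in WT and at 9.04, 7.71 and 9.53 in KO livers, with KO 3 the highest, for a difference of 1.87 (SE 0.493). Phlda3 and Zmat3, other p53 targets, were higher by 1.49 and 1.38, again with KO 2 closest to the WT arrays. The death receptor Fas went the other way, at -0.45, and Ddit4, an inhibitor of mTOR that stress and p53 both induce, stood at 10.10, 10.96 and 10.93 against 8.98, 9.35 and 9.21. All 3 KO arrays lay below the WT arrays for Ddit4, at a difference of -1.48 (SE 0.257, adjusted p = 0.0995).

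Genes of RNA processing and ribosome assembly were higher by small steps. Of 44 splicing factors, 22 lay above and 0 below, with a median of 0.28, and Sf3a1, of the branch site complex, was higher by 0.62 (SE 0.125). Of 35 genes of ribosome biogenesis, 15 lay above and 0 below (median 0.32), with the nucleolar protein Gnl3 higher by 0.51 (SE 0.0952). These genes are bright, and 34.8% and 28.8% of all genes in the brighter quartiles lay above. Cytosolic ribosomal proteins (10 of 45 above, median 0.13) and mitochondrial ribosomal proteins (13 of 50 above, median 0.17) stood close to those shares, and their medians were -0.05 and -0.01 after 75th percentile scaling. Genes of the respiratory chain did not follow, with 2 of 52 above and 4 below and a median of -0.07. Of 347 zinc finger genes of the Zfp series, many of them repressors of repeats, 96 lay above and 13 below, with a median of 0.11 that was -0.07 after that scaling.

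Among genes that stood lower, Ltbp4, a latent TGF-beta binding protein of elastic fibres, stood at 12.24, 12.36 and 12.26 in WT and at 9.34, 10.35 and 10.49 in KO livers. The WT arrays were almost equal, and even the highest KO array was 1.75 below the lowest of them, for a difference of -2.23 (SE 0.312, adjusted p = 0.0995). Ntn4, a netrin of basement membranes, stood at 10.25, 10.13 and 10.10 against 8.17, 8.97 and 8.42, a difference of -1.64 (SE 0.208). Gja4, the arterial connexin 37, stood at 11.69, 12.07 and 12.13 against 8.16, 10.75 and 10.23. Its groups did not overlap, and the difference of -2.25 (SE 0.679) was -1.47 without KO 1, the lowest array.

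Further endothelial genes were lower in all 3 KO livers. Jam2, an adhesion molecule of endothelial junctions, stood at 12.07, 11.85 and 11.97 against 10.79, 11.31 and 10.95 (difference -0.95, SE 0.149), and Vegfc, the growth factor of lymphatic vessels, differed by -0.67 (SE 0.111). Icam1, an adhesion receptor for leukocytes, differed by -0.52 (SE 0.106). Chosen after their values were seen, the endothelin receptor Ednrb and the lipid phosphatase Plpp3 differed by -1.09 and -0.85. Other vessel genes stood higher: Flt4, the receptor of Vegfc, by 0.49 (SE 0.0922), Nr2f2, a regulator of venous identity, by 0.86 (SE 0.166), and the guidance genes Sema6b and Plxna4 by 0.94 and 0.69. The mean of 31 pan-endothelial genes was 11.04 to 11.13 in WT livers and 11.50, 11.01 and 11.53 in KO 1, KO 2 and KO 3, so these genes were not lower together. Within the list 4 genes lay above and 0 below, and without KO 2 24 lay above, where 29.4% of all genes did. The endothelial mean was thus highest in KO 1 and KO 3, the arrays with the lowest hepatocyte mean and the highest cell division means, and its part in those results was not tested.

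Signalling families of which these genes are members had genes on both sides, as had all genes tested (19.2% above and 11.1% below). Of 29 genes of VEGF and angiopoietin signalling, 3 lay above (10.3%) and 5 below (17.2%), with the growth factor receptor Fgfr1 at -0.41. Of 32 semaphorin, plexin, netrin and slit genes, 4 lay above (12.5%) and 4 below (12.5%). Of 26 TGF-beta and activin genes, 5 lay above (19.2%) and 4 below (15.4%). The signal transducer Smad2 was higher by 0.52 (SE 0.0628, adjusted p = 0.0995 in limma) and the activin subunit Inhbb differed by -1.01. Medians of the 3 lists were -0.04, 0.03 and 0.08, and the last was -0.10 after 75th percentile scaling.

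Ackr1, a receptor of venules that binds chemokines without signalling, was low by a like amount in all 3 KO livers. It stood at 9.12, 9.10 and 9.33 in WT and at 7.82, 7.55 and 7.62 in KO livers, a difference of -1.52 (SE 0.104, adjusted p = 0.0995). The other scavenging receptors stood higher, Ackr2 by 0.95 (SE 0.275) and Ackr3 by 0.72 (SE 0.152). Ccl5, a chemokine of T cells and macrophages, stood at 11.92, 12.09 and 11.82 against 9.95, 10.45 and 10.28. Unlike the mean of the T and NK cell list, to which it belongs, it was as high in WT 1 as in WT 2 and WT 3, and its difference was -1.72 (SE 0.15, adjusted p = 0.0995). The chemokines Ccl9, Ccl17 and Ccl22 were at -1.12, -1.09 and -0.94. Of 30 chemokines 7 lay below (23.3%) and 2 above (6.67%), with a median of -0.26. Of 20 chemokine receptors 5 lay below (25%) and 2 above (10%), where 11.1% and 19.2% of all genes did.

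The bile duct list was low as a whole in the KO livers. Of 17 genes, all KO arrays lay below all WT arrays in 11 and above in 0, with a median of -0.53. The largest differences were those of the keratins Krt8 and Krt18 (-1.83 and -1.73), which overlapped through KO 2. Their WT means were 11.40 and 10.94, against 6.45 for the keratin Krt19. With the hepatocyte mean as a covariate they differed by -0.78 and -0.26, and which cells their signal came from was not tested. Cdh1, the cadherin of epithelial cells, stood at 8.43, 8.09 and 8.34 in WT and at 6.59, 6.94 and 6.48 in KO livers. The groups were more than 1 log2 unit apart (difference -1.62, SE 0.153, adjusted p = 0.0995). Cdh1 is also in the list of periportal hepatocyte genes, so it does not mark bile ducts alone. Pkhd1, a protein of the bile duct cilium, stood at 7.13, 6.69 and 6.73 against 5.63, 5.98 and 5.54, a difference of -1.13 (SE 0.172). The keratin Krt19 (-0.71, SE 0.152) and the stem cell antigen Prom1 (-0.53) also had no overlap, nor did St14, an epithelial surface protease outside the list (-0.76, SE 0.0737). Several members are dim, and 21.8% of the dimmest and 15.7% of the second quartile of all genes lay below. With the hepatocyte mean as a covariate the median of the list was -0.53 as well.

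Further lower genes of smallest p had varied roles. Dusp5, a phosphatase that switches off nuclear ERK, stood at 10.73, 10.53 and 10.50 in WT and at 9.70, 9.87 and 9.78 in KO livers, a difference of -0.81 (SE 0.0886). Rasgrf2, an exchange factor of Ras and Rac, differed by -1.36 (SE 0.159) and Mbd1, which binds methylated DNA, by -0.90 (SE 0.124). The small mitochondrial protein Romo1, at 10.85, 10.80 and 10.83 against 10.30, 10.43 and 10.31, differed by -0.48 (SE 0.0628), a small step between arrays of little spread. Ptgds, a prostaglandin D synthase, and Osbpl3, a sterol-binding protein, differed by -0.77 and -0.69. Npy, a neuropeptide, and the adhesion receptor Adgrg6 were among the larger differences, at -1.73 (SE 0.455) and -1.59 (SE 0.502), with KO 2 and KO 3 of Adgrg6 at 7.92 and 7.90, nearer the WT arrays than KO 1 at 6.31. Cgnl1, a tight junction scaffold, was higher by 1.01 (SE 0.15). Of 28 tight junction genes 8 lay below (28.6%) and 4 above (14.3%), where 11.1% and 19.2% of all genes did. Of these 28 genes 17 had a WT mean under 7.

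**Figure D5:**
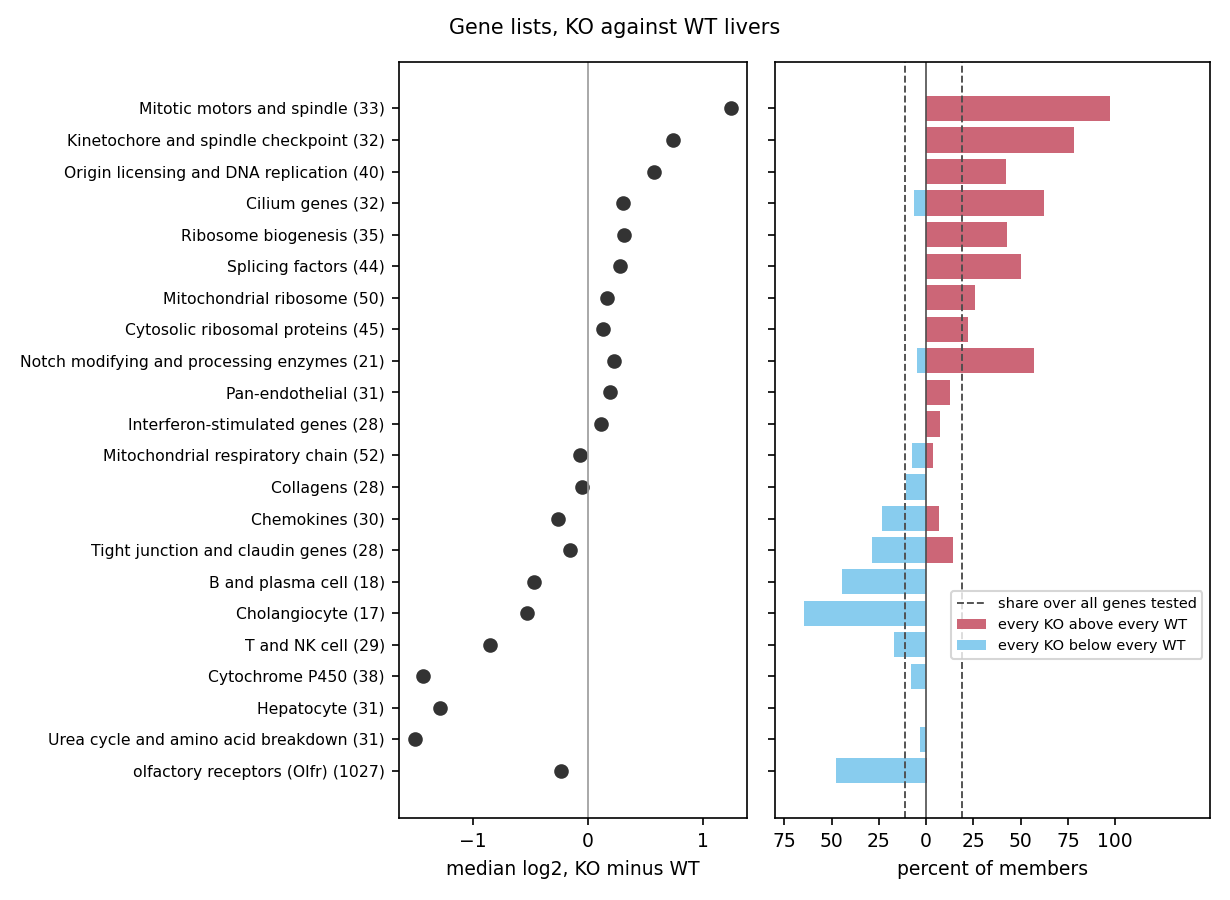
Left, median log2 difference of 22 gene lists, KO minus WT (x axis), with the number of genes in brackets. Right, the percent of members with every KO array above (red, to the right) or below (light blue, to the left) every WT array, where dashed lines mark the shares over all genes tested, 19.2% and 11.1%; the hepatocyte, urea cycle and cytochrome P450 lists have the lowest medians but few members without overlap.

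Genes of hepatocyte function had the largest negative medians and, outside the periportal list described below, almost no separation. Of 31 genes of the urea cycle and amino acid breakdown, all had a negative difference (median -1.50), yet the groups did not overlap in 1. Of 38 cytochromes P450 the median was -1.43 with 3 below, of 30 conjugating enzymes -1.11 with 1 below, of 25 bile acid genes -0.95 with 0 below, and of 20 apolipoprotein and lipid carrier genes -1.04 with 1 below and 1 above. KO 2 made the overlap: without it, 30 of 31 urea cycle genes, 32 of 38 cytochromes and 21 of 25 bile acid genes lay below, where 20.9% of all genes did. Without KO 3, the array poorest in hepatocyte RNA, the medians of the urea cycle and P450 lists were -0.73 and -0.54. KO 3 was also the array with the high Y-linked genes, and 7 of the 38 P450 genes belong to the list of female-biased liver genes, among them Cyp2b9 at 5.19 in KO 3 and at 9.02 to 12.48 in the other arrays. The mean of 17 female-biased genes was 6.08, 8.25 and 5.21 in KO 1, KO 2 and KO 3, in the same order as the hepatocyte mean. That of 18 male-biased genes was 6.39, 7.96 and 7.17. The part of sex in these values was not tested. Fatty acid oxidation genes (median -0.17, 0 of 29 below) and genes of cholesterol and fatty acid synthesis (-0.57, 0 of 30 below) differed less.

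The hepatocyte list shares members with several of these lists (4 with the urea cycle, 4 with P450, 2 with bile acid, 5 with apolipoprotein genes and 0 with the other 3), so taking its mean as a covariate moves those lists towards 0 by construction and tests nothing about them. With that covariate, medians of these lists lay near or above 0: -0.09 for the urea cycle, -0.06 for P450 and for conjugating enzymes, 0.34 for bile acid genes, 0.09 for apolipoproteins, 0.50 for fatty acid oxidation and 0.08 for lipid synthesis. A few liver genes lay below in all 3 KO livers. Of 10 genes of periportal hepatocytes, those near the portal vein, 3 lay below, against 11.1% of all genes. They were Cyp2f2, Hal and Cdh1, and the list's median of -1.70 was the lowest of all lists. Of 15 genes of pericentral hepatocytes, those near the central vein, 0 lay below, with a median of -1.05. Cyp2f2, a P450 of hepatocytes near the portal vein, stood at 11.29, 11.86 and 12.17 in WT and at 7.06, 10.55 and 6.99 in KO livers. KO 2 too lay below the lowest WT array, although its hepatocyte mean was the highest of all. The difference of -3.58 (SE 1.01, adjusted p = 0.139) was -2.15 with the hepatocyte covariate. Hal, the periportal enzyme of histidine breakdown, stood at 8.87, 9.99 and 10.73 against 6.13, 8.46 and 5.29 (difference -3.24, SE 0.921, and -1.90 with the covariate). Hsd17b6, a steroid dehydrogenase, stood at 9.07, 9.92 and 10.06 against 6.00, 8.69 and 4.86, a difference of -3.16. Etnppl, which breaks down phosphoethanolamine, stood at 6.69, 7.69 and 7.63 against 4.98, 5.92 and 4.98 (difference -2.04, SE 0.381, adjusted p = 0.102), and Cyp2b10, a P450 induced by drugs, differed by -1.15 (SE 0.309).

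Genes of lymphocytes were low in every KO liver and also in WT 1. Of 29 T and NK cell genes, all had a negative difference (median -0.85), and 5 lay below. Without WT 1, 28 of 29 lay below, where 16.9% of all genes did and 24.2% lay above. That count follows from leaving out the array that this same list singled out, and it is no support. Stat4, a transcription factor of T and NK cells, stood at 6.32 in WT 1 and 9.12 in WT 2, with WT 3 close to WT 2, and at 6.06, 6.06 and 6.13 in KO livers, so that WT 1 lay 0.19 above the highest KO array, while the WT arrays ranged over 2.80 log2 units. Its difference was -2.06 (SE 0.771, adjusted p = 0.203), and -2.97 without WT 1. The costimulatory receptor Cd28 and the activation marker Cd69 differed by -2.04 and -1.77, and by -2.98 and -2.43 without WT 1. Since WT 1 was singled out by this list, the differences without it are descriptions, and no p-value without it is given for these genes singly. Of 18 B and plasma cell genes 8 lay below (44.4%) and 0 above, against 11.1% and 19.2% of all genes. A WT mean under 7 was found in 12 of the 18, and 21.8% of the dimmest and 15.7% of the second quartile of all genes lay below. The immunoglobulin heavy chain Ighm differed by -0.75 (SE 0.142).

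Genes of antigen presentation were lower in part. Of 17 genes of MHC class I and II, 5 lay below (29.4%) and 0 above, where 11.1% and 19.2% of all genes did, with a median of -0.18. The list mean was 10.37, 10.28 and 10.49 in WT and 9.90, 10.31 and 10.05 in KO livers. WT 1 thus lay between WT 2 and WT 3, unlike in the T and NK cell list. The class II genes H2-Ab1 and H2-Eb1 differed by -0.77 (SE 0.24) and -0.63 (SE 0.142), and Nlrc5, the regulator of class I genes, by -0.37 (SE 0.07), with KO arrays at 9.98, 9.95 and 9.98. Of 13 dendritic cell genes 2 lay above (15.4%) and 3 below (23.1%), with a median of -0.01, against 19.2% and 11.1% of all genes. Clec9a, a receptor of one class of dendritic cells, was higher, at 9.20, 9.13 and 9.15 in WT and at 10.67, 9.80 and 10.56 in KO livers (difference 1.18, SE 0.237). The 3 genes below were Ccr7 (-1.26), Cd209a (-0.65) and Siglech (-0.42). All mice had received poly(I:C), and of 28 interferon-stimulated genes 2 lay above and 0 below, with a median of 0.12 that was -0.06 after 75th percentile scaling. These were Eif2ak2, the double-stranded RNA-activated kinase, at 0.67 (SE 0.234) and the guanylate-binding protein Gbp3 at 0.41. Of 29 genes of the unfolded protein response 2 lay above and 1 below, and of 23 Kupffer cell genes 1 and 1.

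Receptor families that liver hardly expresses were low as well. Of 1027 olfactory receptor genes, all KO arrays lay below all WT arrays in 489 and above in 3, with a median of -0.23, and 1016 of them had a WT mean under 7. The family mean was 5.12 in WT 1, 4.75 and 4.72 in WT 2 and WT 3, and at most 4.62 in the KO livers. Without WT 1 the median was -0.11, with 494 genes below and 17 above. Of 44 keratin-associated protein genes, a family of hair, 21 lay below and 0 above (median -0.20). Signal of such dim probe sets was thus lower in the KO arrays, and lower differences of dim genes elsewhere in the table lie on the same side.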

How the data were processed

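RNA of 3 WT and 3 KO livers was measured on whole-transcript arrays. The deposited values are log2 expression, made by the authors with RMA in oligo per the submitters' processing notes; the sources used here give no versions, and raw signals were not used here. RMA equalizes array distributions, so differences are relative. The annotation table gave 1 gene for 21789 of 35556 probe sets and several genes for 1621, and did not list 12146. For each of 19938 genes the probe set of highest mean over all 9 arrays was kept. Groups were compared with limma 3.58.1 (lmFit and eBayes, R 4.3.3), Benjamini-Hochberg adjusted over all genes, at 0.05. The labels do not say that the animals were processed separately, and no batch is given. The number of arrays limits the precision. Members and lists were chosen with earlier results of these data known. Named genes are Notch1, the 15 of smallest p and the 15 of largest difference in each direction among genes without overlap, with a mean of at least 7 in the higher group and outside predicted genes and receptor and histone families, the 5 members of each list by either ranking, all members of lists of up to 12, and tissue markers. The test was tried on simulated data. No label states that replicate numbers pair the animals.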

Additional observations from a re-analysis of the deposited data

How the results depend on the processing

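With all 6 arrays limma called 0 genes at an adjusted p of 0.05, and that count changes without KO 2 or WT 1. Leaving out 1 array in turn gave 0 to 1949 genes past the threshold, 0 to 1671 higher and 0 to 278 lower. The highest counts came without KO 2, and 60 genes (5 higher, 55 lower) passed without WT 1. At an unadjusted p under 0.05 the same settings gave 2220 to 4177 higher and 593 to 1648 lower genes, and 4208 to 5861 genes lay above and 2723 to 4166 below. Without both WT 1 and KO 2, chosen after seeing the data, 4354 genes passed (2687 higher, 1667 lower), 4528 were higher and 2860 lower at an unadjusted p under 0.05, and 6757 lay above and 5796 below. Array weights gave 5744 genes (3905 higher, 1839 lower) and 3208 lower at an unadjusted p under 0.05. A fit of all 9 arrays gave 2 genes, both lower, and 2085 higher at an unadjusted p under 0.05. Repeated quantile normalization gave 1837 such higher genes, and leaving out dim genes, which tests fewer genes, 275 lower. The 75th percentile scaling gave 839 higher and 3652 lower, with 1012 above and 7513 below. An adjusted p of 0.10 gave 366 genes (316 higher, 50 lower).

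Notch1 differed by -2.84 to -3.33 when 1 array was left out, and passed the threshold without KO 2 (-3.29), without WT 1 and KO 2 (-3.19) and with array weights (-3.05). Notch3 changed sign under 75th percentile scaling (-0.15), with the hepatocyte covariate (-0.07) and without KO 3 (-0.05), and Dll4 with that covariate (-0.12). The cause was not tested. With the replicate number as a block 0 genes passed, with 2956 higher and 822 lower at an unadjusted p under 0.05. Deviations from the group means had correlations of 0.31, 0.43 and -0.39 between same-numbered arrays. With groups of 3 whose arrays differ in hepatocyte RNA, these values do not settle whether the numbers pair the samples.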
